A study of Homo sapiens with 10 samples.

Results

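In all, 10 genes were taken of the 58051 gene rows of each deposited count table. Each belongs to the negative feedback arm of the ERK pathway or is an ETV transcription factor gene read alongside it. They are the phosphatase genes DUSP4, DUSP5 and DUSP6, the Sprouty genes SPRY1, SPRY2 and SPRY4, the Spred genes SPRED1 and SPRED2, and the ETS factor genes ETV4 and ETV5. The symbols were fixed by name and each matched 1 gene row in both tables. The RNA came from HAP1, a human line that carries close to 1 copy of each chromosome and descends from the leukaemia line KBM-7. The groups were wild type cells (3 paired-end libraries), RBM4 knockout clone 1 (3 libraries) and RBM4 knockout clone 2 (2 libraries), with 1 further wild type library and 1 knockout library sequenced single-end. Each knockout group is a single clone, so what differs between clones for other reasons cannot be told apart from the knockout within 1 clone. The labels do not say which clone the single-end knockout library came from. The labels name no treatment, and all cells grew in medium with serum.

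ERK is the last kinase of a relay that runs from growth factor receptors through RAS, RAF and MEK to the nucleus. Active ERK switches on genes that damp the relay: DUSP4 and DUSP5 encode nuclear phosphatases and DUSP6 a cytoplasmic phosphatase that remove phosphate from MAP kinases, and the Sprouty and Spred proteins hold back RAS and RAF upstream of ERK. ETV4 and ETV5 are transcription factors of the PEA3 group of the ETS family, and their transcripts, like those of DUSP6 and SPRY4, are widely used as a readout of ERK output, in part because ERK relieves repression by the factor CIC. HAP1 cells carry the BCR-ABL1 fusion kinase, which feeds into this relay.

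The libraries held 33192095 to 55617525 counts each in the paired-end table, and 44140706 and 41265510 counts in the wild type and knockout libraries of the single-end table. RBM4, the gene targeted, stood at 79.4 ± 0.651 CPM (SD, n = 3) in wild type, and at 23.2 ± 1.11 CPM (n = 3) and 25.5 ± 0.369 CPM (n = 2) in clones 1 and 2. CPM are counts scaled by the TMM-adjusted library size. RBM4 fell by 1.70 on the log2 scale, taking the mean of both clones (SE 0.048, adjusted p = 1.11e-10 in edgeR's quasi-likelihood test). The fusion partner genes BCR and ABL1 summed to 29.9 to 34.3 CPM in wild type, and to 36.3 to 38.3 and 38.04 to 39.8 CPM in clones 1 and 2. Of 14 haematopoietic markers 1 passed the filter on low counts, and GATA1, MPO, MS4A1, CD3E, HBB and HBG1 were among those at 0 in every paired-end library. Of 10 epithelial markers 6 were tested. The level summed over all 10 was 50.1 to 55.5 CPM in wild type and 68.6 to 75.5 and 77.5 to 84.4 CPM in clones 1 and 2. It was mostly KRT18 (means 38.2, 51.5 and 56.7 CPM), with GRHL2 at 0 throughout. EPCAM stood at 1.57, 2.30 and 0.963 CPM in the 3 groups, and ESRP1 at 8.08, 10.9 and 8.17 CPM. Sums of the other marker lists are also over every marker listed. Of 8 neural markers 4 were tested (70.8 to 79.8, 89.2 to 98.7 and 96.3 to 102.5 CPM, mostly TUBB3). MAP2 stood at 2.71, 3.34 and 2.53 CPM in the 3 groups, and SYP at 3.09, 3.72 and 3.03 CPM. Of 10 fibroblast and mesenchymal markers 4 were tested (479 to 514, 396 to 459 and 451 to 455 CPM, mostly VIM), and none of 6 endothelial markers was (at most 0.370 CPM). COL1A1, of the mesenchymal list, rose where that sum fell, at 13.4, 19.7 and 26.3 CPM. TWIST1 stood at 10.0, 9.55 and 8.50 CPM, and ACTA2 at 2.35, 2.83 and 1.98 CPM. The part of these differences in the results below was not tested. In bulk RNA, fewer cells that express a gene and less RNA per cell cannot be told apart.

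The 3 Sprouty genes are close relatives of which SPRY1 was called lower, SPRY4 higher and SPRY2 neither, so the bases upstream of a start of each are printed here, from RefSeq's GRCh38.p14 promoter table. The table held 10 windows for 6 of the 10 genes, each from 250 bases before to 50 after an annotated start, and no entry for DUSP4, DUSP5, ETV4 and ETV5. Only the part outside annotated exons is shown, 5′ to 3′ on the gene's strand, with GGAA or its reverse complement TTCC, the core letters of ETS factor sites, in capitals. The SPRY1 stretch is chr4:123396545-123396794 (plus strand), that of SPRY2 is chr13:80341127-80341376 (minus strand) and that of SPRY4, in an intron before an internal start, is chr5:142324418-142324497 (minus strand).
SPRY1: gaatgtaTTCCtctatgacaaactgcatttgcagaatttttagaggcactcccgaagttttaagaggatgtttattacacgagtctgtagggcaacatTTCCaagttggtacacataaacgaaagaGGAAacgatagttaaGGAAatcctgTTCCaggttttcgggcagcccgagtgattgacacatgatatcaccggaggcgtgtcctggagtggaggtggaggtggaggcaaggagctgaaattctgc
SPRY2: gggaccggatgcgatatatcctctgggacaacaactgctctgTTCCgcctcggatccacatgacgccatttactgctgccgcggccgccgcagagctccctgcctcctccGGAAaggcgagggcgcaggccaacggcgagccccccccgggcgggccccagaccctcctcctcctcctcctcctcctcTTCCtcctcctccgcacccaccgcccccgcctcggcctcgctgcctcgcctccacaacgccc
SPRY4: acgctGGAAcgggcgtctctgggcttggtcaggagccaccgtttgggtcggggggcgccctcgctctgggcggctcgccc

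The full windows of these 3 starts, exons included, held 5 (SPRY1), 3 (SPRY2) and 4 (SPRY4) such cores. The second SPRY1 window held 4, and the other SPRY2 windows held 5 and 4, so the windows of the 3 genes overlap in this count. The median over all 35116 windows of the table was 3.0, and 95.5% of the windows held at least 1. The window of DUSP6 held 6, and 16.1% of all windows held at least as many. The longer ETS core CCGGAAG, on either strand, was in 10.3% of all windows and, among the 10 windows, in 1: that of a second SPRY1 start, within a SPRY1 exon at chr4:123398311-123398333 (plus strand), shown with the core in capitals.
SPRY1, second start: ctccgcagCCGGAAGggggccgc
The AP-1 site TGACTCA, on either strand, was in 4.95% of all windows and in 1 of the 10, at a SPRED2 start, chr2:65366770-65366792 (minus strand).
SPRED2: ccctcggaTGACTCAtccggtac
The CIC octamers TGAATGAA and TGAATGGA (2.63% of all windows) and the CRE TGACGTCA (1.85%) had no match on either strand in these 10 windows. These are matches of letters in short windows and carry no evidence of binding.

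Per kilobase of exon, the scale on which levels of different genes can be compared, the 10 genes spanned a wide range in wild type cells. SPRED2 was highest at 5.60 ± 0.0839 CPM per kilobase (SD, n = 3), followed by SPRED1 (2.95 ± 0.0274), SPRY2 (1.46 ± 0.174), DUSP5 (0.913 ± 0.168), SPRY1 (0.711 ± 0.0776), ETV4 (0.365 ± 0.101), DUSP4 (0.149 ± 0.0216), ETV5 (0.114 ± 0.0179), DUSP6 (0.0556 ± 0.0182) and SPRY4 (0.00268 ± 0.00234). The replicates of neighbours in this order overlapped for DUSP5 and SPRY1 and for DUSP4 and ETV5, and for no other neighbours. The median of 19558 tested genes with a length was 3.26 CPM per kilobase, so that SPRED2 (percentile 61.4) lay above it and the other 9 below, DUSP4, DUSP6, ETV5 and SPRY4 at or under percentile 7.7. In both clones ETV4 stood above SPRY1, which it did not in wild type. The other places in the order were the same in all 3 groups.

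**Figure D1:**
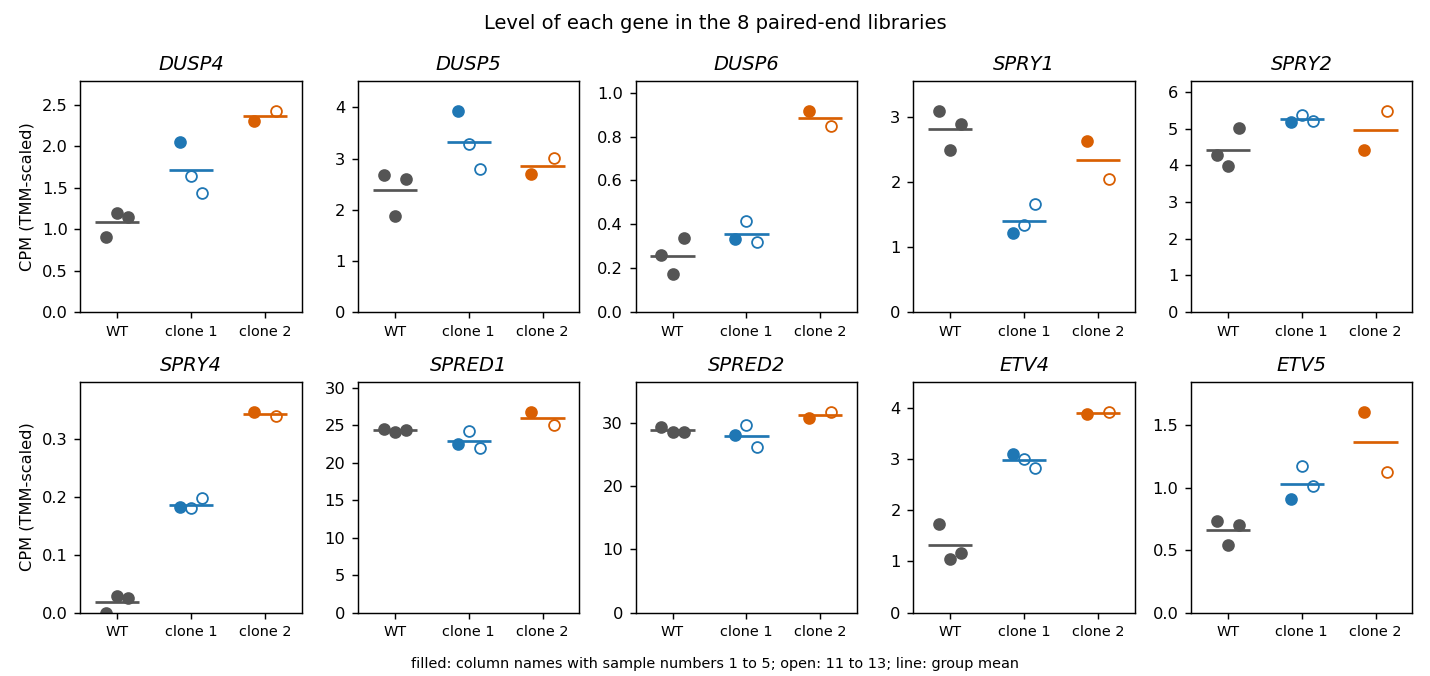
Level of each of the 10 genes (vertical axes, CPM, each panel with its own scale from 0) in the 3 wild type, 3 clone 1 and 2 clone 2 libraries, 1 point per library, with a line at the group mean. Every knockout point lies above every wild type point for DUSP4, DUSP5, SPRY4, ETV4 and ETV5, and the SPRY1 points of clone 1 lie below those of wild type.

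Against wild type, with both clones weighted equally (below, the mean of the clones), 5 of the 10 genes rose (DUSP4, DUSP6, SPRY4, ETV4 and ETV5) and 1 fell (SPRY1), where 18.0% of all 20747 tested features were called (9.87% higher and 8.09% lower). The 10 genes were chosen with earlier results of these data known, so this comparison with all features is a description and not a test. A call is an adjusted p under 0.05 in edgeR's quasi-likelihood test, with Benjamini-Hochberg adjustment across every feature tested. The p-values and SEs rest on the spread of libraries within a group. Those of the mean of the clones therefore do not measure the spread between clones. All 10 genes passed the filter on low counts, SPRY4 through clone 2, where it is highest. The median log2 fold change of the 10 was 0.60, beside 0.002 over all features, and SPRY4, whose fold is uncertain, lies above this median also at the lower bounds of its ratios given below. In clone 1, 3 rose (DUSP4, SPRY4, ETV4) and SPRY1 fell, with 16.0% of all features called (9.37% higher and 6.64% lower). In clone 2, 5 rose (DUSP4, DUSP6, SPRY4, ETV4, ETV5) and 0 fell, with 10.8% of all features called (6.18% higher and 4.59% lower). In clone 1 the libraries of 6 of the 10 genes all lay above the wild type libraries (18.9% of all features) and those of 1 below (16.1%). For clone 2 these numbers were 8 (23.5%) and 0 (21.5%), and for all 5 knockout libraries they were 5 (13.5%) and 0 (11.8%). DUSP4 and ETV4 were called higher in each clone, as were 4.42% of all features. SPRY4 was too, but it passed the filter through clone 2, so its place in the counts of this paragraph is no support for them. Both clones were compared with the same 3 wild type libraries, so the agreement of these calls is not independent. Without wild type replicate 1 the mean of the clones gave 3 calls in place of 6 (DUSP4, SPRY4 and ETV4), with 8.97% of all features called.

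ETV4 had the smallest p of the 10. ETV4 (ENSG00000175832, chromosome 17, 43527844 to 43579620) had 1.73, 1.06 and 1.16 CPM in wild type. Clone 1 had 3.11, 3.01 and 2.84 CPM, and clone 2 had 3.89 and 3.93 CPM. The groups did not overlap: each knockout library held more than the highest wild type library, and clone 2 lay above clone 1. It rose 2.25-fold in clone 1 (1.17 on the log2 scale, SE 0.18, adjusted p = 0.000746) and 2.94-fold in clone 2 (1.56, SE 0.19, adjusted p = 0.000116). ETV4 kept its call in all 3 comparisons with wild type under each alternative run. With GC correction its log2 fold change in clone 1 was 1.02, beside 1.17 in the reported fit. Its GC content, 60.8%, was the highest of the 10. Its exons share 68 bases on the opposite strand with DHX8, an RNA helicase gene that stood at 87.2, 88.3 and 89.4 CPM in the 3 groups and was not called (0.03, adjusted p = 0.720).

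ETV5 (ENSG00000244405, chromosome 3, 186046308 to 186110318), the close paralog of ETV4, had 0.736, 0.542 and 0.703 CPM in wild type. It had 0.906, 1.17 and 1.01 CPM in the clone 1 libraries and 1.61 and 1.13 CPM in those of clone 2. All 5 knockout libraries were above all 3 wild type libraries, but the clones overlapped each other. It rose in clone 2 (1.03, SE 0.26, adjusted p = 0.0204) and in the mean of the clones (0.84, SE 0.22, adjusted p = 0.0178), and was not called in clone 1 (0.65, SE 0.24, adjusted p = 0.0883). Its call in clone 2 was lost with DESeq2 (1.03, adjusted p = 0.05) and without wild type replicate 2 (0.90, adjusted p = 0.0815), wild type replicate 3 (1.06, adjusted p = 0.051) or clone 2 replicate 1 (0.76, adjusted p = 0.255). Its call in the mean was lost when any wild type library or clone 2 replicate 1 was left out (adjusted p 0.0512 to 0.0910, log2 fold changes 0.70 to 0.91). DGKG, which shares 164 exon bases with ETV5 on the same strand, stood at 0.0990, 0.110 and 0.112 CPM in the 3 groups. Together ETV4 and ETV5 summed to 0.479 ± 0.115 CPM per kilobase in wild type, 1.01 ± 0.0399 in clone 1 and 1.32 ± 0.0501 in clone 2, and ETV4 made up 75.9%, 82.4% and 82.2% of that sum.

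Among the phosphatase genes, DUSP4 (ENSG00000120875, chromosome 8, 29333064 to 29350668) had 0.902, 1.20 and 1.14 CPM in wild type. The clone 1 libraries had 2.05, 1.64 and 1.43 CPM and the clone 2 libraries 2.30 and 2.42 CPM. The 3 groups did not overlap. It rose 2.19-fold in clone 2 (1.13, SE 0.21, adjusted p = 0.00309). In clone 1 it rose 1.57-fold (0.66, SE 0.20, adjusted p = 0.0388), but 13 of 19 alternatives did not call it (highest adjusted p = 0.178). These include DESeq2, GC correction and leaving out any wild type library, clone 1 replicate 1 or 2, or either clone 2 library. The mean of the clones gave 0.89 (SE 0.18, adjusted p = 0.00374) and was called under all 19.

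DUSP6 (ENSG00000139318, chromosome 12, 89347232 to 89353271) had few counts: 11, 6 and 14 in wild type, 11, 23 and 13 in the clone 1 libraries, and 37 and 40 in those of clone 2. These are 0.261, 0.171 and 0.339 CPM, 0.332, 0.415 and 0.321 CPM, and 0.916 and 0.850 CPM. Both clone 2 libraries lay well above every other library, while clone 1 overlapped wild type. It rose 3.36-fold in clone 2 (1.75, SE 0.34, adjusted p = 0.00462) and was not called in clone 1 (0.47, SE 0.35, adjusted p = 0.402). The clones themselves differed by 1.28 (SE 0.32), which missed the threshold (adjusted p = 0.0659), so DUSP6 is not shown to differ between them. With no filter on low counts this difference was called (1.27, adjusted p = 0.0353). The mean of the clones was called (1.11, SE 0.31, adjusted p = 0.0235) but 7 of 19 alternatives did not call it (highest adjusted p = 0.113): DESeq2, the sample-number term, both clones as 1 group, the libraries with sample numbers 1 to 5 only, and leaving out wild type replicate 1, wild type replicate 2 or clone 2 replicate 1. An antisense gene, ENSG00000274021, shares 1875 exon bases with DUSP6 on the other strand. It held 1 count over the 3 wild type libraries, 1, 1 and 0 counts in clone 1, and 7 and 13 counts in clone 2, so it was also highest where DUSP6 was. How strand was treated when reads were counted is not stated, so the part that reads of 1 gene play in the count of the other was not tested.

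DUSP5 (ENSG00000138166, chromosome 10, 110497838 to 110511544) was the most abundant of the 3 phosphatase genes per kilobase in every group. Its wild type libraries lay between 1.88 and 2.68 CPM, those of clone 1 between 2.79 and 3.93 CPM, and those of clone 2 at 2.70 and 3.02 CPM. Every knockout library was above every wild type library, but no comparison was called in the reported fit (0.36, SE 0.16, adjusted p = 0.135 in the mean of the clones). In clone 1 (0.47, adjusted p = 0.0818) it was called higher with no filter on low counts (0.48, adjusted p = 0.0370) and with the libraries of sample numbers 1 to 5 only (0.71, adjusted p = 0.0398). Within the 3 genes, DUSP6 made up 4.89 ± 1.01% of the summed level per kilobase in wild type, 4.92 ± 0.949% in clone 1 and 11.9 ± 1.28% in clone 2.

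The Sprouty genes went different ways. SPRY4 (ENSG00000187678, chromosome 5, 142310427 to 142326455) held 0, 1 and 1 counts in the wild type libraries. It held 6, 10 and 8 counts in the clone 1 libraries and 14 and 16 in those of clone 2. Each clone 1 library was above wild type and each clone 2 library above clone 1. From the summed counts, 2 in wild type, the ratio to wild type was 11.01 in clone 1 (exact 95% interval 2.73 to 96.1) and 20.3 in clone 2 (5.15 to 175), intervals that cover counting error only. SPRY4 was called higher in clone 1 (adjusted p = 0.00907), clone 2 (adjusted p = 0.00162) and their mean (adjusted p = 0.00165). It passed the filter on low counts through clone 2, where it is highest: with wild type and clone 1 alone in the fit it did not pass. Its call is therefore no support for the count of genes that rose, although it was also called in clone 1 with no filter (adjusted p = 0.00335). Its call in clone 1 was lost with the libraries of sample numbers 1 to 5 only (adjusted p = 0.0944). DESeq2 gave it no adjusted p in clone 1 or in the mean. At 0.343 ± 0.00466 CPM in clone 2 it remained the lowest of the 10 genes per kilobase.

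SPRY1 (ENSG00000164056, chromosome 4, 123396795 to 123403760) was the only one of the 10 called lower. It had 3.09, 2.48 and 2.89 CPM in wild type. The clone 1 libraries had 1.21, 1.34 and 1.65 CPM and the clone 2 libraries 2.62 and 2.04 CPM. Clone 1 lay below all wild type and clone 2 libraries, whereas clone 2 replicate 1 fell within the wild type range. SPRY1 fell to 0.497 of wild type in clone 1 (-1.01, SE 0.18, adjusted p = 0.00202), a call kept under every alternative run, and was not called in clone 2 (-0.28, SE 0.19, adjusted p = 0.407). The difference between the clones was 0.73 (SE 0.20, adjusted p = 0.103), and it was called with no filter on low counts (0.72, adjusted p = 0.0350). The fall in the mean (-0.64, SE 0.15, adjusted p = 0.0109) lost its call without wild type replicate 1 (-0.58, adjusted p = 0.0677) and with both clones as 1 group (-0.67, adjusted p = 0.0553).

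SPRY2 (ENSG00000136158, chromosome 13, 80335976 to 80340951) was the most abundant Sprouty gene and was not called. It ranged from 3.995 to 5.02 CPM in wild type, and from 5.197 to 5.38 and 4.43 to 5.48 CPM in clones 1 and 2 (mean of the clones 0.20, SE 0.11, adjusted p = 0.244). The summed level of the 3 Sprouty genes was 2.17 ± 0.219 CPM per kilobase in wild type, 2.11 ± 0.0621 in clone 1 and 2.27 ± 0.140 in clone 2, with every knockout library inside the wild type range. Within it, SPRY1 took 32.8 ± 2.60% of the sum in wild type, 16.7 ± 2.32% in clone 1 and 26.1 ± 6.19% in clone 2, while SPRY4 took 0.126 ± 0.114%, 1.34 ± 0.0523% and 2.31 ± 0.173%. The libraries of neither clone overlapped wild type in either share. For SPRY1 the gap was narrow in clone 2, whose highest share was 30.46% beside a lowest of 30.54% in wild type.

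**Figure D2:**
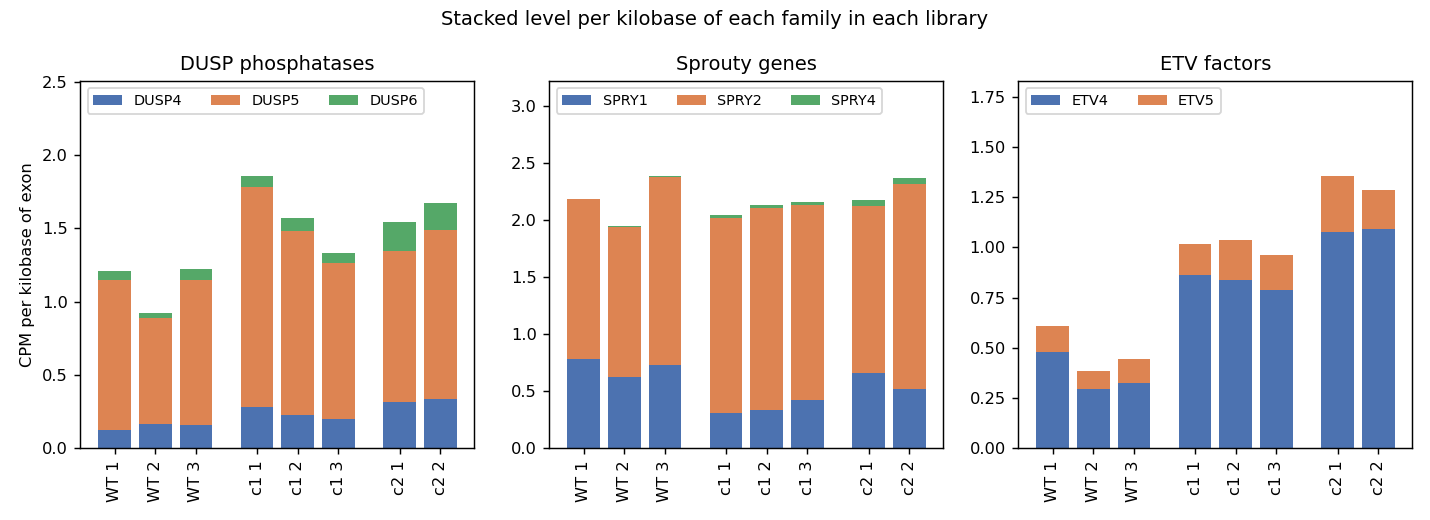
Stacked level per kilobase of exon (vertical axes, CPM per kilobase) of the phosphatase, Sprouty and ETV genes (3 panels) in each of the 8 paired-end libraries, 1 bar per library. The Sprouty bars are of like height while the SPRY1 segment is smallest in clone 1, the DUSP6 segment is largest in clone 2, and the ETV bars are higher in both clones than in wild type.

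The Spred genes, which encode membrane-bound inhibitors that bring neurofibromin to RAS, were not called. SPRED1 (ENSG00000166068, chromosome 15, 38252326 to 38357249) ranged from 24.1 to 24.5 CPM in wild type, and from 22.0 to 24.2 and 25.1 to 26.8 CPM in clones 1 and 2. SPRED2 (ENSG00000198369, chromosome 2, 65310851 to 65432637) ranged from 28.6 to 29.3 CPM, 26.3 to 29.7 CPM and 30.8 to 31.8 CPM. Neither was called in any comparison of the reported fit. With GC correction SPRED1 was called higher in clone 2 (0.25, adjusted p = 0.0387), but not with GC and length correction (adjusted p = 0.0546). In clone 2 both libraries of each gene lay above all wild type libraries, with ratios of summed counts of 1.06 for SPRED1 (95% counting interval 1.01 to 1.12) and 1.09 for SPRED2 (1.03 to 1.14). In clone 1 the ratios were 0.948 (0.901 to 0.998) and 0.977 (0.932 to 1.02). The sign of SPRED1 in clone 1 turned with GC correction (0.07), and its GC content, 38.9%, was the lowest of the 10. Levels relative to each gene's mean correlated with GC content (Spearman) at -0.544, -0.464 and -0.36 in the wild type libraries. The values were 0.38, -0.077 and 0.538 in clone 1, and 0.52 and -0.103 in clone 2. With GC correction 12.4% of all features were called in clone 1, in place of 16.0%.

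**Figure D3:**
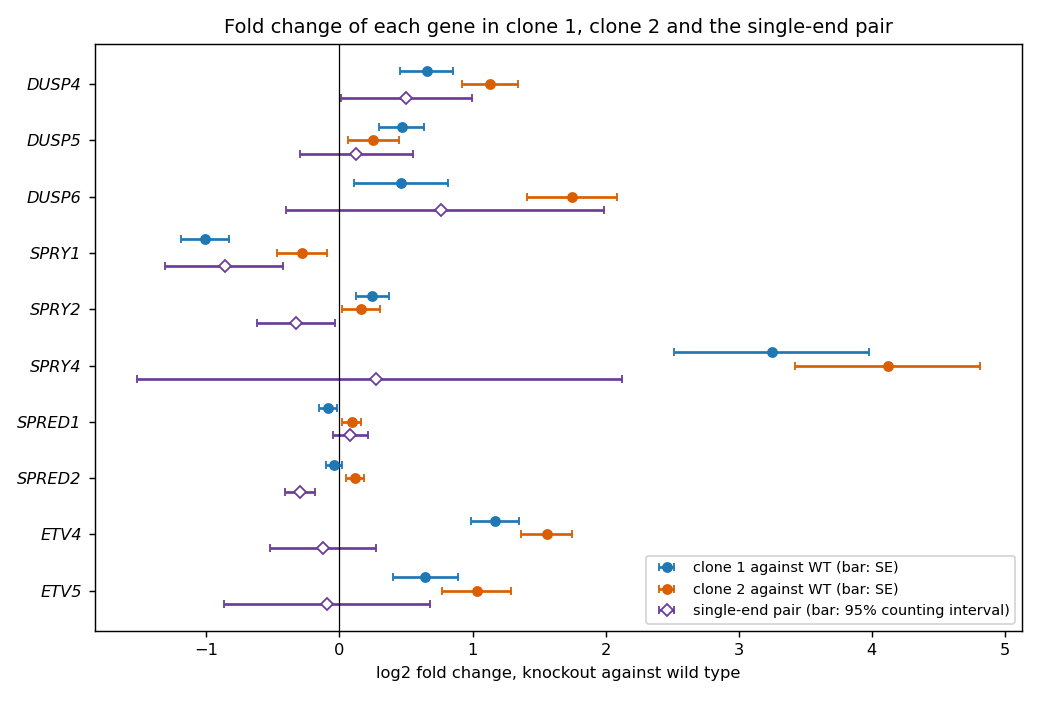
Log2 fold change against wild type (horizontal axis) of each of the 10 genes in clone 1 and clone 2 (filled points, bars 1 SE) and in the single-end pair (open diamonds, bars 95% counting intervals). ETV4 and ETV5 lie right of 0 in both clones and near 0 in the single-end pair, and SPRY1 lies left of 0 in all 3.

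None of the 10 genes differed between the clones at an adjusted p under 0.05, where 2.09% of all features did (1.1% higher and 0.993% lower in clone 2). At an unadjusted p under 0.05 the count was 6 (9.54% of all features). At an adjusted p under 0.05 the count was 0 with DESeq2 (1.87% of all features) and 2 with no filter on low counts (1.92%). The 2 were DUSP6 and SPRY1, both higher in clone 2. The log2 difference of clone 2 from clone 1 was above 0 for 8 of the 10, with a median of 0.39 beside -0.001 over all features. For 7 of them both clone 2 libraries lay above all clone 1 libraries, as for 11.4% of all features. The wild type libraries and the first library of each clone carry sample numbers 1 to 5 in the column names, and the other knockout libraries carry 11 to 13, so the second block holds no wild type. Within the first block (3 wild type, 1 clone 1 and 1 clone 2 library) each clone is assumed to vary like wild type, and 5 of the 6 calls in the mean were made: DUSP4 (1.01), SPRY1 (-0.67), SPRY4, ETV4 (1.38) and ETV5 (0.85). DUSP6 was not called there (1.07, adjusted p = 0.0996). With the block as a term the same 5 genes were called.

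**Figure D4:**
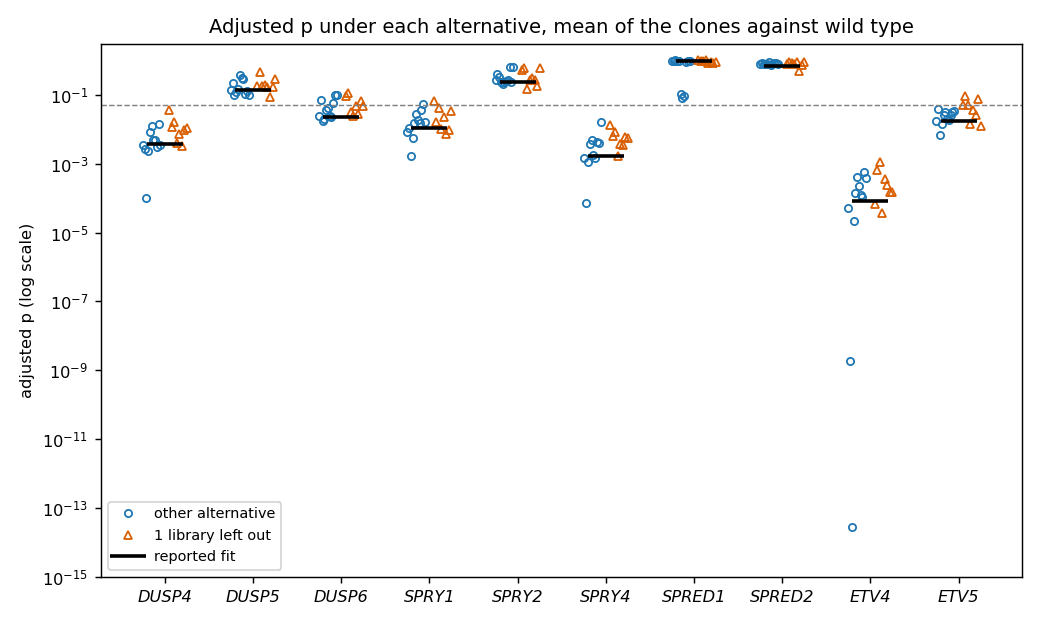
Adjusted p (vertical axis, log scale) of each of the 10 genes for the mean of the clones, under the reported fit (black bar), 1 library left out (triangles) and the other alternatives (circles), with a dashed line at 0.05. All points of DUSP4, SPRY4 and ETV4 lie below the line, and those of DUSP6, SPRY1 and ETV5 fall on both sides of it.

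The single-end pair, 1 wild type and 1 knockout library, did not show a rise of the ETV genes, and has no replicates. ETV4 held 115 counts in wild type and 102 in the knockout, a ratio of 0.919 after scaling (95% counting interval 0.697 to 1.21), which lies wholly below the 2.25-fold and 2.94-fold of the clones. ETV5 held 32 and 29 counts (0.939, 0.548 to 1.60). The single-end wild type library had 2.65 CPM of ETV4, above the 3 paired-end wild type libraries. SPRY4 held 6 and 7 counts (1.21, 0.348 to 4.35), and its 0.138 CPM in the wild type library was above the 0 to 0.0285 CPM of the paired-end ones. DUSP4 held 63 and 86 counts (1.41, 1.01 to 1.99) and DUSP6 11 and 18 (1.70, 0.758 to 3.97). SPRY1 held 126 and 67 counts (0.551, 0.403 to 0.747), beside a fold of 0.497 in clone 1 and 0.823 in clone 2. SPRY2 (0.798, 0.651 to 0.976) and SPRED2 (0.816, 0.754 to 0.883) were lower in the knockout library, and neither was called lower in a clone. DUSP5 (1.09) and SPRED1 (1.06) had intervals on both sides of no change. RBM4 went from 84.7 to 25.3 CPM in this pair. With a prior count of 2, the log2 fold change of the pair was 4.69 for PDGFRA (0.77 and 5.38 in clones 1 and 2). It was -1.18 for MET (-0.38 and -1.16) and 1.21 for CCND1 (0.73 and 2.22). PDGFRA and MET thus lay nearer clone 2 and CCND1 nearer clone 1. In CPM, CCND1 was at 4.52 in the single-end wild type library and 10.5 in the knockout library. Its means in clones 1 and 2 were 4.47 and 12.6 CPM. RPS6KA6 (1.36 in the pair, 0.59 and 1.34 in clones 1 and 2), RET (1.23, 0.25 and 0.86) and EPHA4 (-0.276, -0.495 and -0.136) lay nearer clone 2. So did APOE, KRT8, CAPN6 and KIF17, described below. KIT (-0.90, -0.66 and -1.13) lay midway. Which clone the library came from was not tested.

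In all, 8 lists of other genes of the pathway, written from textbook knowledge, cover what surrounds these 10. The counts are for the mean of the clones, where 18.0% of all features were called, and the medians are beside 0.002 over all features. Of 7 other MAP kinase phosphatase genes, 2 rose and 1 fell (median log2 fold change 0.009). DUSP10, whose product acts on the stress kinases p38 and JNK, rose from 0.845 ± 0.279 CPM in wild type to 2.05 ± 0.530 CPM and 2.46 ± 0.0901 CPM in clones 1 and 2 (1.41, SE 0.23, adjusted p = 0.000991). DUSP8 rose by 0.77 (adjusted p = 0.000667), and DUSP7 fell by 0.21 on the log2 scale (adjusted p = 0.0157), a call lost under 4 alternatives. Of 16 other inhibitors of RAS and ERK signalling, 0 rose and 1 fell (median -0.04), a count that ran from 1 to 7 over the alternatives, the 7 with sample numbers 1 to 5 only (6 of them lower). The gene that fell was ERRFI1, an inhibitor of the EGF receptor that is itself a feedback gene, from 5.60 ± 0.393 CPM to 3.35 ± 0.0894 and 3.54 ± 0.284 CPM (-0.70, SE 0.10, adjusted p = 0.000416).

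Of 28 tested genes of 30 on the list of other ERK-responsive genes, 9 rose and 1 fell (median 0.24). The 9 were ATF3, CCND1, EGR1, EGR3, EMP1, FOSL2, JUN, NR4A1 and PLAUR, and the gene that fell was EPHA4. JUN, a partner in the AP-1 factor, rose from 2.41 ± 0.361 CPM to 6.35 ± 0.544 CPM and 8.41 ± 0.970 CPM in clones 1 and 2 (1.60, SE 0.13, adjusted p = 1.79e-06). Of the 10 genes of a published score of MAPK pathway activity, 6 are among the feedback and ETV genes described here (DUSP4, DUSP6, SPRY2, SPRY4, ETV4, ETV5). Of the other 4, CCND1 rose, EPHA4 fell, and PHLDA1 (0.22, adjusted p = 0.125) and EPHA2 (0.01, adjusted p = 0.903) were not called. CCND1, which encodes cyclin D1, went from 2.68 ± 0.447 CPM to 4.47 ± 0.186 CPM and 12.6 ± 1.04 CPM in clones 1 and 2 (1.48, SE 0.12, adjusted p = 2.31e-06). The receptor gene EPHA4 went from 40.0 ± 0.703 CPM to 28.3 ± 2.73 and 36.4 ± 2.86 CPM (-0.32, SE 0.06, adjusted p = 0.00454). Both calls were lost with both clones as 1 group (adjusted p = 0.0976 for CCND1 and 0.0643 for EPHA4).

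The kinase relay itself held calls in both directions. Of 31 genes of the RAS to ERK cascade, 8 rose and 2 fell (median 0.03). RPS6KA6, which encodes the ERK-bound kinase RSK4, rose from 16.7 ± 0.752 CPM to 25.1 ± 1.85 and 42.2 ± 4.44 CPM (0.96, SE 0.07, adjusted p = 1.01e-06), and the adaptor gene SHC1 rose by 0.39 (adjusted p = 0.000331). RPS6KA3, which encodes the kinase RSK2, was called lower (-0.21, adjusted p = 0.0193), but not with GC correction. With GC correction, or without wild type replicate 1, 5 genes of this list were called and 0 of them lower. Of 20 tested genes of 25 on the list of other ETS factors and CIC, 2 rose and 4 fell (median -0.005). ETS1 fell from 5.08 ± 0.497 CPM to 2.83 ± 0.0461 and 2.73 ± 0.143 CPM (-0.87, SE 0.11, adjusted p = 0.000128), and FLI1, another ETS factor gene, from 0.510 to 0.0728 and 0.108 CPM (-2.41, SE 0.53, adjusted p = 0.00720). GABPA and ETV1, the third gene of the PEA3 group, were the others called lower. ETV1 was called lower in clone 1 and not in clone 2, and clone 2 exceeded clone 1 by 1.10 on the log2 scale, a difference that was itself called. ATXN1, whose product binds CIC, rose by 0.60 (adjusted p = 0.000981), and EHF by 0.68 (adjusted p = 0.0321, a call lost under 7 alternatives). Without wild type replicate 1 or 3, 3 genes of this list were called.

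Upstream of the relay, ligand and receptor genes also went both ways. Of 16 tested genes of 29 on the ligand list, 5 rose and 3 fell (median 0.04). TGFA, a ligand of the EGF receptor, rose from 0.473 ± 0.0327 CPM to 1.20 ± 0.199 and 1.61 ± 0.0692 CPM (1.54, SE 0.21, adjusted p = 0.000245), and IGF2 rose by 2.44 (adjusted p = 3.56e-06). FGF2 fell from 36.5 ± 0.192 CPM to 23.8 ± 1.42 and 25.8 ± 2.67 CPM (-0.56, SE 0.06, adjusted p = 3.29e-05), and NRG1, a ligand of ERBB receptors, fell from 1.32 to 0.182 and 0.274 CPM (-2.50, SE 0.25, adjusted p = 1.20e-05). Of 20 tested genes of 27 on the receptor list, 7 rose and 3 fell (median 0.07). The PDGF receptor gene PDGFRA stood at 0.940 ± 0.0973 CPM in wild type, 1.59 ± 0.0971 CPM in clone 1 and 39.2 ± 1.73 CPM in clone 2, a log2 difference from wild type of 0.77 and 5.38 respectively (adjusted p = 0.00235 and 8.23e-12). RET was called higher (0.55), and KIT (-0.90) and MET (-0.77) lower. The calls of PDGFRA, RET and MET in the mean were lost with both clones as 1 group, and with it, or without wild type replicate 1 or 2, 6 receptor genes were called.

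**Figure D5:**
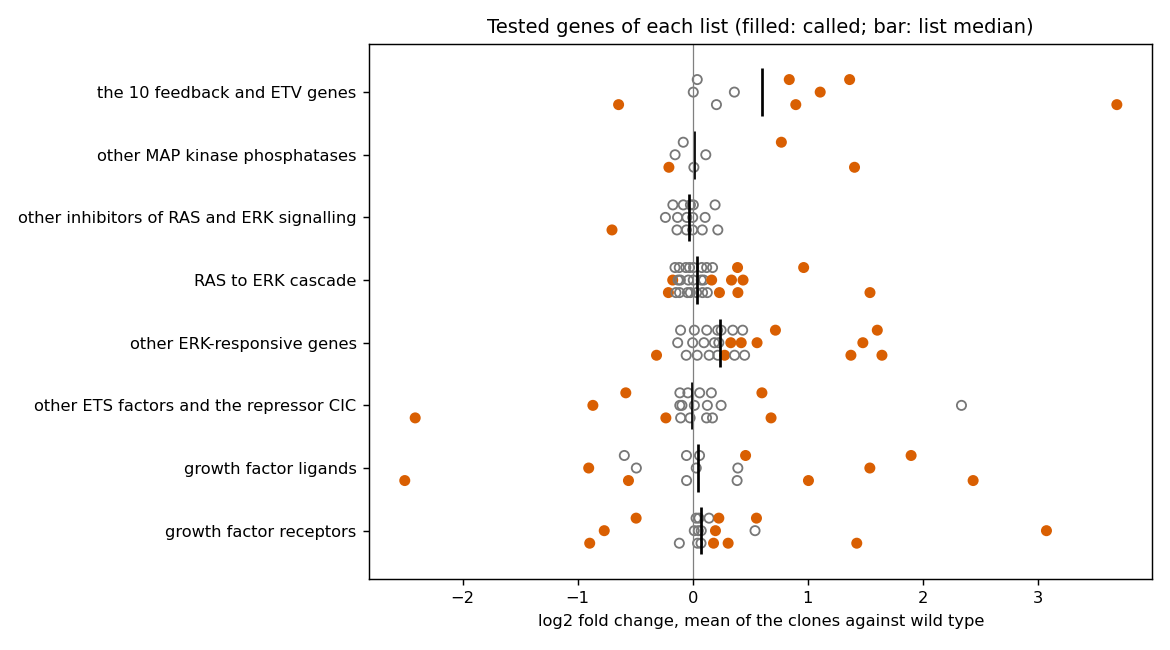
Log2 fold change from wild type to the mean of the clones (horizontal axis) of each tested gene of the 10 and of 7 other lists (rows), filled where called, with a bar at the list median. The 10 genes have their median at 0.60 and the other lists shown between -0.04 and 0.24.

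The genes whose pattern over the 8 paired-end libraries was most like that of DUSP6, among 13428 genes with a mean of at least 1 log2 CPM, were APOE, KRT8, CAPN6, QPCT and KIF17. The measure was the root mean square difference of centred log2 CPM, and it ranged from 0.212 (APOE) to 0.261 (KIF17). DUSP6 itself and these 5 were highest in clone 2. KRT8, an epithelial keratin gene, stood at 4.10 ± 0.259 CPM in wild type, 5.31 ± 0.285 CPM in clone 1 and 14.4 ± 1.80 CPM in clone 2, and APOE, an apolipoprotein gene, at 3.63 ± 0.549, 5.22 ± 0.536 and 11.1 ± 2.17 CPM. These genes were chosen for their likeness, so their values are a description.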

How the data were processed

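Libraries of HAP1 RNA were made with a stranded mRNA kit, per the labels' protocols. The authors deposited raw counts, whole numbers per gene and per repeat subfamily, 58051 gene rows and 1187 repeat rows in each of 2 tables. The submitters' processing notes name STAR 2.5.2a and the build hg38 (GRCh38). No source used here gives the counter's strand setting, its treatment of multi-mapping reads or its annotation. Symbols matched 56948 rows, and GENCODE 29 gave coordinates and exon lengths.

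Counts were filtered with edgeR's filterByExpr (20747 features kept, 19683 of them genes), scaled with TMM and tested with edgeR's robust quasi-likelihood F test on the 8 paired-end libraries, with a mean for each group, Benjamini-Hochberg adjustment over all features and calls at an adjusted p under 0.05. The versions were edgeR 4.0.16 and DESeq2 1.42.0 under R 4.3.3. The SE of a log2 fold change is its size over the square root of F. Since the labels name no separate cultures, the spread that p-values rest on may be technical. Replicates of a group differed beyond sampling noise. Replicate numbers were not taken as pairs. The single-end pair was used as values with exact 95% intervals of counting error only. The code was tested on simulated counts.

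The 10 genes, the other lists and the tests were chosen with earlier results of these data known. Named besides the 10 were RBM4, the other genes of the MAPK score, overlapping genes, up to 2 called genes per list and direction with the smallest p, and the 5 genes most like DUSP6. Of the genes the rule took, 1 is not reported here. Further names complete small counts and were chosen after their values were seen. Alternatives were RLE size factors, DESeq2, no filter, gene rows only, a replicate block, GC and length correction, a term for the sample numbers, other sets of groups, and each library left out. The fit on sample numbers 1 to 5 only was chosen after seeing the data.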

Additional observations from a re-analysis of the deposited data

Results flagged for a closer look

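No group holds 4 or more samples, so no search for single deviating samples was made. None of the 10 genes was called between the clones, but 12 other genes named here were, by edgeR's quasi-likelihood test of clone 2 against clone 1 with an adjusted p under 0.05. Among the genes of the pathway lists, clone 2 exceeded clone 1 by 4.61 (log2) for PDGFRA, 1.49 for CCND1, 0.74 for RPS6KA6, 1.10 for ETV1, 0.61 for RET and 0.36 for EPHA4, and lay below it by -0.47 for KIT and -0.78 for MET. Of the genes picked for likeness to DUSP6, which is highest in clone 2, the difference was 1.43 for KRT8, 1.09 for APOE, 0.91 for KIF17 and 0.89 for CAPN6.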

How the results depend on the processing

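DUSP4, SPRY4 and ETV4 in the mean of the clones, ETV4 and SPRY1 in clone 1, and DUSP4, DUSP6, SPRY4 and ETV4 in clone 2 kept their calls under every alternative that gave them an adjusted p. The number of the 10 genes called in clone 1 (4) was 2 with DESeq2 and 2 with only the groups compared in the fit, each of which tested 9 of them, 5 with no filter on low counts (DUSP5 added), and 3 to 4 with 1 library left out. In the mean of the clones (6) it was 3 to 6 with 1 library left out, the 3 being without wild type replicate 1, and 4 with DESeq2. In clone 2 (5) it was 4 to 5 with 1 library left out and 6 with GC correction, and between the clones (0) it was 2 with no filter on low counts and 0 with any library left out. With the replicate block the counts were 3, 5, 6 and 0 in clone 1, clone 2, the mean and between the clones, so that the block changed 1 call of the 10 genes, DUSP4 in clone 1. Deviations of same-numbered wild type and clone 1 libraries from their group means correlated at -0.085, -0.07 and -0.392. Those of wild type and clone 2 correlated at -0.074 and 0.137, so the numbers did not pair wild type with the clones. Those of the 2 clones correlated at 0.512 and 0.499. Clone 2 has 2 libraries, so exchanging them only turns the sign (-0.512 and -0.499). The cause was not tested.

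Among the 10 genes, signs turned only in comparisons where the gene was not called. SPRED1 in the mean (0.004) became -0.004 with RLE size factors, DESeq2 and the replicate block, -0.009 with gene rows only, -0.011 with both clones as 1 group, and ran from -0.025 to 0.018 with 1 library left out. SPRED1 in clone 1 became 0.071 with GC correction, 0.072 with the block and GC correction and 0.081 with GC and length correction. SPRED2 in clone 1 ran from -0.086 to 0.001 with 1 library left out. SPRY2 in clone 2 ran from -0.013 to 0.304 and was -0.012 with sample numbers 1 to 5 only, and between the clones it ran from -0.251 to 0.066. Counts of called genes moved by over 1.5 times in some fits for 5 of the 8 lists: other inhibitors 1 to 7, the cascade 5 to 13, the MAPK score 0 to 3, ETS factors 3 to 9 and receptors 6 to 10. Depth limits SPRY4 (2 counts in wild type) and DUSP6 (31 counts in wild type) most.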
